A study of Homo sapiens with 6 samples.

Results

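The genes described here are 9 members of the detoxification program that the transcription factor NRF2 is known to drive, namely NQO1, the aldo-keto reductases AKR1B1, AKR1B10, AKR1C1, AKR1C2 and AKR1C3, the efflux pump ABCC3, the thioredoxin reductase TXNRD1 and the glutathione peroxidase GPX2. They are 9 of 60664 genes in the deposited count table, and all 9 were among the 17638 genes with enough counts to be tested. They were chosen by their measured change between the groups, around the fall of NQO1 in this same comparison and its opposite direction to HMOX1, so their changes between the groups are given as a description, without p-values. The samples were 6 libraries labelled HCT8, a human colorectal cancer cell line grown in DMEM with fetal bovine serum. Control cells, with a genotype given as WT, received a control plasmid (3 libraries), and cells with a genotype given as GPT1 overexpression received a plasmid that overexpresses GPT1 (3 libraries). GPT1 is the cytosolic alanine aminotransferase, gene symbol GPT. Neither the promoter of the plasmid, nor the time after transfection, nor whether cells were selected is given in the sources used here, and both groups were transfected. No source says that the libraries came from separate cultures, so p-values measure only the spread between these libraries, which may be technical.

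NRF2, encoded by NFE2L2, is held in the cytoplasm by KEAP1, which marks it for degradation through the CUL3 and RBX1 ubiquitin ligase. When oxidants or electrophiles modify KEAP1, NRF2 accumulates, pairs with a small MAF protein and binds antioxidant response elements, short DNA motifs in front of genes for detoxification, glutathione and NADPH. BACH1 competes for the same elements and is known above all as the repressor of HMOX1. In the intestine this program meets food-borne quinones, aldehydes and peroxides, and in colorectal and other tumours NQO1 and the aldo-keto reductases are commonly used as readouts of NRF2 activity.

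Sequence at the starts of the members is shown because it lets genes with different changes be set side by side. RefSeq windows on GRCh38.p14, of 250 bases directly before a RefSeq transcription start, covered 7 members with 10 windows, all members but AKR1B10 and ABCC3. Several of these starts lie downstream of the 5′ end that GENCODE 29 gives the gene, and the windows of NQO1, AKR1C2 and AKR1C3 and the second of TXNRD1 lie wholly inside the span of their gene. Both strands were searched for the antioxidant response element core TGACNNNGC, the AP-1 motif TGANTCA, the aryl hydrocarbon receptor core GCGTG and the E-box CACGTG, of which the element core and TGANTCA can overlap each other. The element core was in 3 of the 10 windows, those of GPX2 and of both TXNRD1 starts, and in 10.9% of all 35114 windows of the same length. It thus occurred in a gene that was lower and in one that was not. The stretches that hold it, with the core in capitals, are chr14:64942849-64942877 on the minus strand for GPX2, chr12:104215670-104215698 on the plus strand for the first TXNRD1 start and chr12:104286920-104286948 on the plus strand for the second.
GPX2: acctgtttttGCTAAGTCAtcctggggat
TXNRD1 first start: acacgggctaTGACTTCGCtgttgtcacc
TXNRD1 second start: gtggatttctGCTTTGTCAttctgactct
In GPX2 the core lay 122 to 114 bases before the RefSeq start and read TGACTTAGC on the opposite strand. At the second TXNRD1 start it lay 102 to 94 bases before and read TGACAAAGC, again on the opposite strand, and at the first it lay 99 to 91 bases before and read TGACTTCGC. The NQO1 window (chr16:69726561-69726810, minus strand) held none of the motifs. All 250 of its bases are annotated exon on the same strand, so no sequence before the annotated 5′ end of NQO1 was searched. The cores of GPX2 and of the second TXNRD1 start also lie in annotated exon. A further pair shows how alike the windows of neighbouring aldo-keto reductase genes are. Printed is the part of each window before its first base of annotated exon (AKR1C1, chr10:4963165-4963252, plus strand, and AKR1C2, chr10:5004024-5004107, minus strand). The AKR1C1 stretch lies before the annotated 5′ end of its gene, whereas the AKR1C2 stretch lies inside the span of its gene.
AKR1C1: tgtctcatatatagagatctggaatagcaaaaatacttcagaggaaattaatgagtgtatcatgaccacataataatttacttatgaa
AKR1C2: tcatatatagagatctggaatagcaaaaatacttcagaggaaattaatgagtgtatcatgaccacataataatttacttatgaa
All 84 bases of the AKR1C2 stretch were identical in AKR1C1, and over the whole windows 245 bases were identical, 98.0% of the window. The windows at both starts of AKR1C3 matched AKR1C1 at 75.6% and 74.4% of the bases. The same alignment of the AKR1B1 windows, from another branch of the family, with those of AKR1C1 gave 54.8% and 60.0%. GCGTG was present in both AKR1B1 windows, which overlap and share the match, and in 1 TXNRD1 window, 3 of 10 windows, against 32.2% of all windows. These matches describe the letters in the windows and say nothing about binding.

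Total counts were 21255655 to 32487217 per library, control replicate 3 being the shallowest. GPT had 3 to 14 counts in the control libraries and 96886 to 106063 in the GPT1 libraries, in the direction of the labels. The libraries differed in a trend with the GC content of transcripts, since the deviation of a library from the mean correlated across 17436 genes with GC content at -0.52 in control replicate 3 and at 0.47 in GPT1 replicate 1, genes not being independent replicates. The correlation with transcript length was 0.285, 0.065 and 0.297 in the controls and -0.377, -0.135 and -0.238 in the GPT1 libraries. The length trend thus ran along with the groups. Of 15 markers of colorectal epithelium, 11 were tested and 10 of them were lower in the GPT1 libraries (median log2 fold change -1.96). Over all tested genes 14.6% were lower and 10.5% higher. The 15 markers summed to 941 to 1067 CPM in the controls and 574 to 633 CPM in the GPT1 libraries. CPM, counts scaled to the size of the library, is the unit of level throughout. KRT20, CDX1, CEACAM5 and GPA33, which commonly mark colorectal epithelium, had too few counts to be tested in either group, while VIM (1023 ± 14.6 CPM) and the neurofilament gene NEFM (293 ± 41.7 CPM) were abundant in the controls. Other epithelial markers were well counted in the controls, among them KRT8 (529 ± 45.3 CPM), KRT18 (261 ± 25.8 CPM), CDH1 (50.1 ± 6.26 CPM) and CDX2 (41.7 ± 4.47 CPM). Of the neural and kidney-line markers, TUBB3 (0.753 ± 0.306 CPM) and PAX8 (0.499 ± 0.172 CPM) were barely detected there. The defining markers thus do not all bear out the label, and whether the cells are HCT8 cannot be settled from these counts, which applies to every reading of them as intestinal epithelium. The 9 neural and kidney-line markers summed to 471 to 580 CPM and 247 to 252 CPM, with 4 of 9 lower, and the fibroblast list, mostly VIM, summed to 1068 to 1107 CPM and 1087 to 1109 CPM, with 3 of 7 tested genes higher and THY1 at 0. The sums of the endothelial (0.188 to 0.955 CPM over all libraries) and leukocyte lists (1.79 to 2.79 CPM) were near 0, with CD3E at 0. The 6 hepatocyte genes summed to 38.0 to 46.8 CPM and 31.1 to 39.3 CPM, with 1 of 3 tested genes lower. The part of these shifts in the results below was not tested, and in bulk samples fewer cells of a type and less RNA per cell cannot be told apart.

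Of the 9 members, 7 were lower in the GPT1 libraries, AKR1B1 was slightly higher and TXNRD1 did not pass. NQO1, AKR1B10, all AKR1C genes, ABCC3 and GPX2 fell by 2.50-fold to 4.94-fold. They are a quinone reductase, 4 of the 5 aldo-keto reductases chosen, a conjugate pump and an intestinal peroxidase. The calls come from edgeR's quasi-likelihood test over all genes with an adjusted p of 0.05. Over all tested genes 14.6% were lower, 3.37% lower by at least 2-fold, and 10.5% higher, and because the rule chose the members on this contrast nothing is read from the difference. The GPT1 libraries all lay below the controls for the same 7 members, an arrangement found for 22.2% of tested genes, and all above them for AKR1B1, found for 21.2%. The median log2 fold change of the members was -1.58, and that of all tested genes was -0.02.

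**Figure D1:**
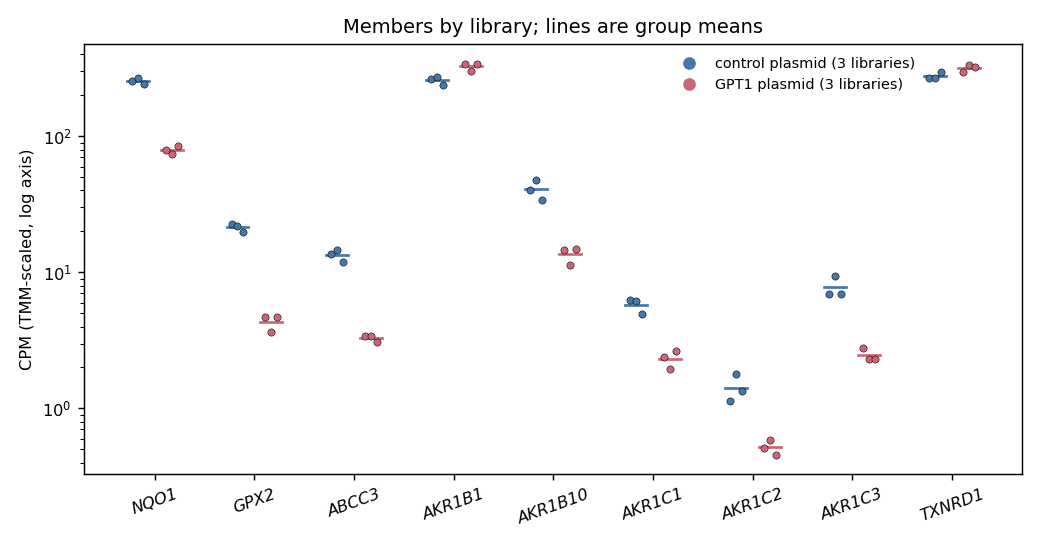
CPM of each member (log axis, scaled with TMM factors) in the 3 control and the 3 GPT1 libraries, each point being a library and each line a group mean. NQO1 dropped from 256 to 79.9 CPM, whereas AKR1B1 (258 and 328 CPM) and TXNRD1 (279 and 320 CPM) were not lower.

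NQO1 (ENSG00000181019, GRCh38 chromosome 16, 69706996 to 69726951, minus strand, protein-coding) encodes the flavoprotein that reduces quinones to hydroquinones with NADH or NADPH. It stood at 254, 269 and 243 CPM in the control libraries and at 79.6, 74.5 and 85.5 CPM in the GPT1 libraries. The groups were far apart relative to their spread, and within each group no library stood out. The means were 256 ± 13.1 and 79.9 ± 5.50 CPM (SD, n = 3 per group), a log2 fold change of -1.68 ± 0.09 (SE) or 3.20-fold lower, and 1.25% of tested genes had a lower value. With 2272 to 8485 counts per library, NQO1 was one of the 3 deeply counted members, along with AKR1B1 and TXNRD1. HMOX1, which encodes heme oxygenase 1, another known NRF2 target that BACH1 represses, went the other way in every library, from 115 ± 7.60 to 374 ± 19.0 CPM (log2 fold change 1.70 ± 0.08). The control libraries held 2.07, 2.51 and 2.13 NQO1 reads per HMOX1 read, and the GPT1 libraries 0.204, 0.211 and 0.226. The rule that chose the members used the opposite directions of these genes, so the ratio only describes that choice. Per kilobase of exon, NQO1 stood above HMOX1 in the controls (78.6 ± 4.01 against 47.8 ± 3.16 CPM per kilobase) and below it in the GPT1 libraries (24.5 ± 1.69 against 155 ± 7.88 CPM per kilobase).

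GPX2 (ENSG00000176153, chromosome 14, 64939152 to 64942905, minus strand, protein-coding) encodes the gastrointestinal glutathione peroxidase, a selenoprotein that reduces hydroperoxides in the epithelium. Its level was 22.7, 22.1 and 19.7 CPM in the controls and 4.70, 3.67 and 4.68 CPM in the GPT1 libraries. This was the furthest fall among the members, 4.94-fold (log2 fold change -2.30 ± 0.14 SE), and 0.340% of tested genes had a lower value. The gene lies within the span of CHURC1 (64914361 to 64944591, plus strand), which stood at 19.8 ± 5.71 and 15.2 ± 3.42 CPM. Whether reads were counted by strand is unknown, so those from the overlap cannot be told apart. ABCC3 (ENSG00000108846, chromosome 17, 50634777 to 50692252, plus strand, protein-coding) encodes a basolateral pump of the MRP family that exports glucuronide and glutathione conjugates and bile salts. It went from 13.6, 14.6 and 12.0 CPM to 3.41, 3.41 and 3.07 CPM, 4.06-fold lower (-2.02 ± 0.14).

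The aldo-keto reductases of the AKR1B branch moved in opposite directions. AKR1B1 (ENSG00000085662, chromosome 7, 134442350 to 134459284, minus strand, protein-coding), aldose reductase, which turns glucose into sorbitol, stood at 263, 275 and 237 CPM in the controls and at 342, 299.9 and 343 CPM in the GPT1 libraries. AKR1B10 (ENSG00000198074, chromosome 7, 134527592 to 134541408, plus strand, protein-coding), an enzyme of the intestinal epithelium that reduces retinal and lipid aldehydes, stood at 40.3, 47.7 and 33.9 CPM and at 14.5, 11.4 and 14.8 CPM. The groups did not overlap for either gene. Of all tested genes, 21.2% had every GPT1 library above the controls and 22.2% had every one below. AKR1B1 differed by 1.27-fold (log2 fold change 0.35 ± 0.09 SE) and AKR1B10 by a log2 fold change of -1.58 ± 0.15. Of the summed CPM of the pair, AKR1B10 made up 13.3%, 14.8% and 12.5% in the controls and 4.06%, 3.66% and 4.15% in the GPT1 libraries. The pair lies in one cluster on chromosome 7. The higher call of AKR1B1 ended when control replicate 1 or GPT1 replicate 1 or 3 was left out, and after correction for transcript length and GC content its log2 fold change was 0.22. AKR1B15, the third gene of the cluster, had 0 to 2 counts per library.

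**Figure D2:**
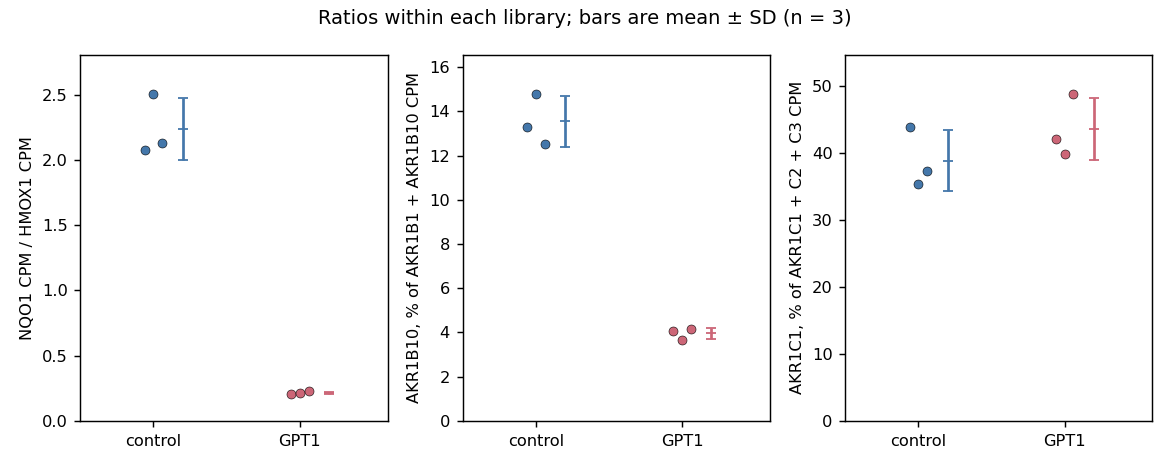
Ratios within each library: NQO1 CPM divided by HMOX1 CPM, AKR1B10 as a percent of AKR1B1 plus AKR1B10 CPM, and AKR1C1 as a percent of the summed AKR1C1, AKR1C2 and AKR1C3 CPM. Points are libraries and bars are mean ± SD. The groups are apart in the first and second panels (means 2.24 against 0.214, and 13.5% against 3.96%) and overlap in the last. The rule that chose the members used NQO1 and HMOX1, so the first panel only describes that choice.

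The 3 AKR1C genes, which lie side by side on chromosome 10, were lower together at low levels. They encode hydroxysteroid dehydrogenases that reduce ketosteroids, prostaglandins and reactive carbonyls. AKR1C1 (ENSG00000187134, 4963253 to 4983283, plus strand, protein-coding), which inactivates progesterone, went from 6.30, 6.13 and 4.95 CPM to 2.38, 1.93 and 2.65 CPM (log2 fold change -1.32 ± 0.17 SE). AKR1C2 (ENSG00000151632, 4987400 to 5018031, minus strand, protein-coding), which inactivates dihydrotestosterone, went from 1.13, 1.78 and 1.34 CPM to 0.515, 0.590 and 0.458 CPM (-1.44 ± 0.28). AKR1C3 (ENSG00000196139, 5035354 to 5107686, plus strand, protein-coding), which makes testosterone and prostaglandin F, went from 6.91, 9.46 and 6.98 CPM to 2.77, 2.33 and 2.32 CPM (-1.66 ± 0.17). For none of the 3 did the groups overlap, and 22.2% of all tested genes also had every GPT1 library below the controls. The summed CPM of the cluster went from 15.0 ± 2.13 to 5.32 ± 0.42. The share of each gene in that sum overlapped between the groups. AKR1C1 took 35.3% to 43.9% in the controls and 39.9% to 48.8% in the GPT1 libraries, and AKR1C2 7.89% to 10.2% and 8.43% to 12.2%. For AKR1C3 the overlap was narrow, with 48.2% to 54.5% and 42.8% to 48.9%. AKR1C2 rested on 14 to 56 counts per library. AKR1C4 and AKR1C8, the other genes of the cluster, had 0 counts in all libraries, where a count of 0 allows up to 3 counts, or 0.0917 to 0.139 CPM per library (counting error only).

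How far the counts of these paralogs can be separated was measured on their transcripts. Of the 50-base stretches in the longest GENCODE 29 transcript of AKR1C2, 52.2% also occurred in another gene, nearly all in AKR1C1, and for AKR1C1 the share was 28.7%. The levels of AKR1C1 and AKR1C2, with parts of their windows printed above, are therefore uncertain. AKR1C3 shared 12.1% of its stretches and AKR1B10 17.4%, of which AKR1B15 accounted for 11.6%. For AKR1B1 the share was 2.92%, with processed pseudogenes that had at most 2 counts in any library, for NQO1 0.978%, and for ABCC3, TXNRD1 and GPX2 none was shared.

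TXNRD1 (ENSG00000198431, chromosome 12, 104215779 to 104350305, plus strand, protein-coding) encodes the cytosolic thioredoxin reductase, a selenoprotein that keeps thioredoxin reduced with NADPH. Like AKR1B1, TXNRD1 did not fall with the 7 members that were lower. It stood at 269, 271 and 299 CPM in the controls and at 296, 336 and 326 CPM in the GPT1 libraries. Control replicate 3 lay above GPT1 replicate 1, so the groups overlapped, and the log2 fold change was 0.19 ± 0.08 (SE). After the length and GC correction it was 0.31 and passed, and without control replicate 3 the gene passed as well (0.26). RPL18AP3 (113 ± 3.64 and 114 ± 3.89 CPM) and EID3 (0.244 ± 0.176 and 0.780 ± 0.206 CPM) lie inside its span on the same strand, and reads they share with it cannot be assigned with certainty. The control libraries held 0.947, 0.995 and 0.815 NQO1 reads per TXNRD1 read and the GPT1 libraries 0.269, 0.221 and 0.262, without overlap between the groups.

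**Figure D3:**
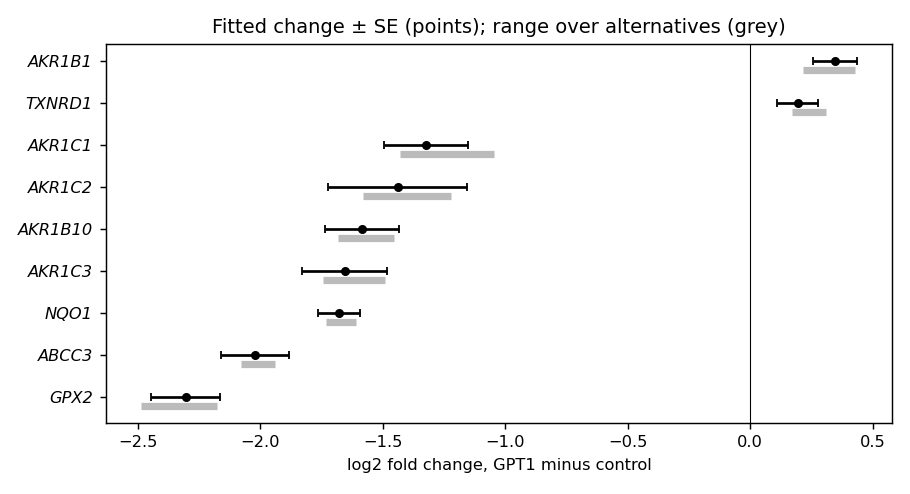
Log2 fold change of each member, GPT1 minus control, as fitted (points, bars are SE), with the range over the alternative settings as grey bars. AKR1B1 and TXNRD1 lie above 0 and the other 7 members lie between -2.30 and -1.32.

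Levels of different genes were compared as CPM per kilobase of annotated exon, a length that pools the exons of all transcripts of a gene. In the controls NQO1 ranked highest with 78.6 ± 4.01, followed by AKR1B1 (70.6 ± 5.31), TXNRD1 (41.6 ± 2.51), AKR1B10 (23.3 ± 3.95) and GPX2 (14.3 ± 1.05). NQO1 stood above AKR1B1 in each control library, although the ranges of the pair overlapped. The order of these 2 genes depends on the length used. Pooled exons hold 3254 bases for NQO1 and 3660 for AKR1B1, and the longest transcripts 2912 and 1930. Per base of the longest transcript, AKR1B1 would stand above NQO1. AKR1C3 (1.72 ± 0.32) stood above ABCC3 (1.39 ± 0.14) in each control library, by about the spread between libraries, and AKR1C1 (0.661 ± 0.084) and AKR1C2 (0.219 ± 0.051) were lowest. In the GPT1 libraries AKR1B1 (89.7 ± 6.71) and TXNRD1 (47.6 ± 3.08) stood above NQO1 (24.5 ± 1.69), then came AKR1B10 (7.79 ± 1.08) and GPX2 (2.90 ± 0.39), with the others below 1 CPM per kilobase. The summed CPM of the 9 members, 884 ± 30.0 in the controls and 754 ± 25.1 in the GPT1 libraries, differed by more than the spread between libraries. Of these reads NQO1 made up 28.9% ± 0.51 in the controls and 10.6% ± 0.40 in the GPT1 libraries, AKR1B1 29.2% ± 1.37 and 43.5% ± 2.50, and TXNRD1 31.7% ± 2.79 and 42.4% ± 3.11.

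The genes whose levels followed NQO1 most closely over the 6 libraries were CSRP1, TNS4, LCN2, SLC16A5 and VIL1, with Pearson correlations of log2 CPM from 0.99876 to 0.99936. The points are the 6 libraries of 2 groups, so such a correlation mostly restates the difference between the groups. VIL1, a microvillus protein and one of the epithelial markers, went from 12.3 ± 0.67 to 3.17 ± 0.29 CPM. LCN2, a secreted siderophore-binding protein, went from 127 ± 12.4 to 22.3 ± 2.52 CPM. Of the other members GPX2 was closest to NQO1 (0.998), followed by ABCC3 (0.993), AKR1B10 (0.988), AKR1C1 and AKR1C3 (both 0.983) and AKR1C2 (0.951). AKR1B1 and TXNRD1 ran against it (-0.85 and -0.82). Correlations above 0.95 were found for 2.82% of tested genes, NQO1 included.

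The genes next to the members were called about as often as genes in general. Of 24 distinct genes that were the nearest or second nearest tested gene on either side of a member and no member themselves, 4 were lower and 2 higher, 25.0% beside 25.1% of all tested genes. NFAT5, a transcription factor of osmotic stress that lies directly beside NQO1, fell from 47.3 ± 11.5 to 23.9 ± 4.46 CPM (log2 fold change -0.98 ± 0.18 SE, adjusted p = 0.0053, edgeR quasi-likelihood test), and CACNA1G, a calcium channel gene beside ABCC3, fell from 3.14 ± 0.17 to 1.59 ± 0.21 CPM (-0.98 ± 0.18, adjusted p = 0.0049, edgeR). Both passed without each library in turn (adjusted p at most 0.0279). The other 4, HCFC2 and SPTB, which fell, and EID3 and FNTB, which rose, did not pass when single libraries were left out, with adjusted p up to 0.149, 0.166, 0.132 and 0.138. These were GPT1 replicates 1 and 3 for all 4, control replicate 1 for SPTB, EID3 and FNTB, control replicate 3 for HCFC2 and FNTB, and GPT1 replicate 2 for SPTB and FNTB. NQO1-DT, the antisense transcript that starts directly upstream of NQO1, stood at 0.274 and 0.521 CPM and did not pass (adjusted p = 0.0864, edgeR). On chromosome 7 BPGM, beyond AKR1B10, stood at 18.2 and 18.7 CPM. The nearest tested genes on either side of the AKR1C cluster on chromosome 10 are distant. KLF6 starts 1187257 bases from AKR1C1, and NET1 starts 377197 bases from AKR1C3. Neither KLF6 (-0.24 ± 0.10, adjusted p = 0.111, edgeR) nor NET1 (-0.27 ± 0.11, adjusted p = 0.0849, edgeR) passed.

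To see whether the rest of the NRF2 and xenobiotic pathway moved with the members, 144 other genes were counted in 12 lists by role. Of the 120 tested, 16 were lower (13.3%), 19 were higher (15.8%) and 85 did not pass, beside 14.6% lower and 10.5% higher over all genes, with a median log2 fold change of 0.02 against -0.02. Passing without each library in turn held for 5 of the 16 (NFE2L3, PTGR1, ALDH3A1, SECISBP2 and CYP4F11) and 7 of the 19 (KEAP1, MAFG, TXN, PRDX1, HMOX1, FTH1 and GSTO1). HMOX1 is among the 19 although the rule for the members used it. Falls of at least 2-fold were called for PTGR1, ALDH3A1, CYP4F11, GSTT2B and GPX7. Adjusted p-values in the following paragraphs are those of the edgeR quasi-likelihood test over all genes.

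**Figure D4:**
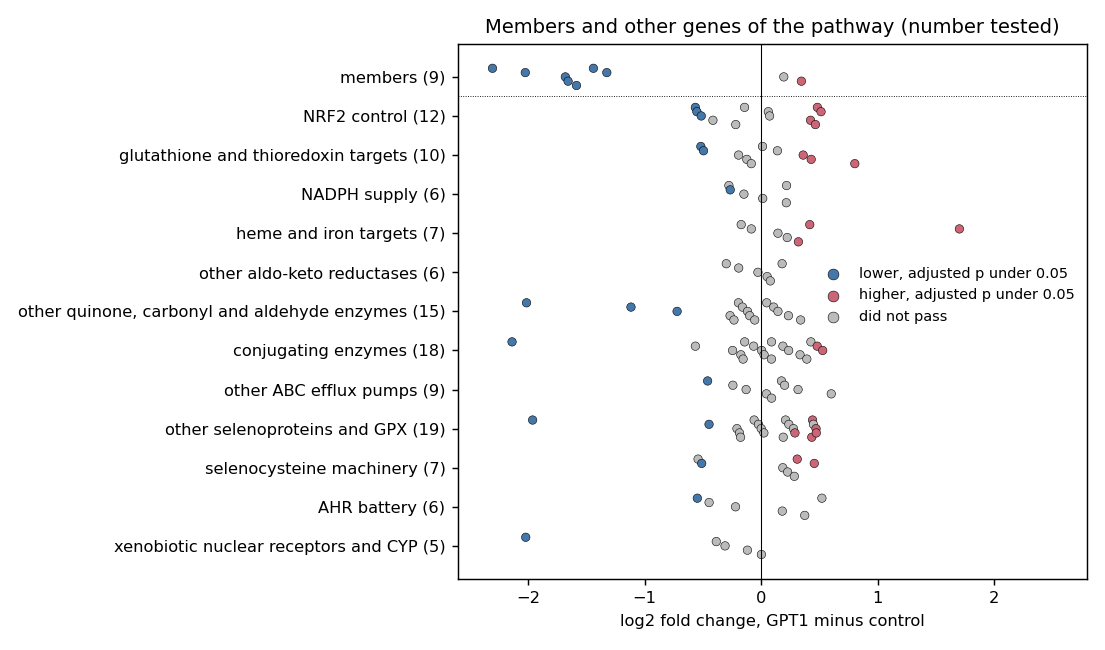
Log2 fold change, GPT1 minus control, of the members and of the tested genes in each pathway list, with the number tested in brackets. Blue and red points passed an adjusted p of 0.05 as lower or higher and grey points did not. The members lie mostly left of -1, and few genes of the other lists do. Because the rule chose the members on this contrast, nothing is read from that difference.

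Of the 12 genes listed under NRF2 control, which include NFE2L2 and its partners and relatives, 4 were higher (KEAP1, MAFG, RBX1 and SQSTM1). A further 3 were lower (NFE2L3, BACH2 and MAFF), and no gene of the list changed by more than 1.48-fold. Over all genes 10.5% were higher and 14.6% lower. NFE2L2 itself stood at 49.4 ± 12.1 and 37.1 ± 5.97 CPM and did not pass (log2 fold change -0.41 ± 0.17 SE, adjusted p = 0.0943), although it did after the length and GC correction (adjusted p = 0.0364) and without a filter on low counts. KEAP1, its inhibitor, rose from 106 ± 6.62 to 152 ± 13.4 CPM (0.51 ± 0.09, adjusted p = 0.0047), and MAFG, a small MAF partner, from 157 ± 17.05 to 219 ± 14.4 CPM (0.48 ± 0.10, adjusted p = 0.0077). RBX1 of the ligase rose by 0.42 and NFE2L3, a relative of NRF2, fell by 0.56 on the log2 scale. BACH1 stood at 32.5 ± 9.60 and 29.4 ± 6.19 CPM (-0.14 ± 0.20, adjusted p = 0.628). SQSTM1, BACH2 and MAFF did not pass without at least 1 library, and RBX1 did not pass without GPT1 replicate 3 (adjusted p = 0.0589).

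Of 10 antioxidant genes known as NRF2 targets, 3 were higher, 2 were lower and 5 did not pass, beside 10.5% higher and 14.6% lower over all genes, and 2 of these calls, PRDX1 and TXN, held without each library in turn. PRDX1, a peroxiredoxin, rose from 236 ± 6.03 to 412 ± 36.6 CPM (0.80 ± 0.09, adjusted p = 0.000245), and thioredoxin, TXN, from 255 ± 23.7 to 344 ± 14.1 CPM (0.43 ± 0.09, adjusted p = 0.0082). GCLM, the modifier subunit of glutathione synthesis, rose by 0.36, and OSGIN1 and the cystine transporter gene SLC7A11 fell by 0.52 and 0.49 on the log2 scale. SRXN1, sulfiredoxin, stood at 2.16 ± 0.26 and 1.98 ± 0.50 CPM and did not pass. GCLM and OSGIN1 did not pass without control replicate 1, control replicate 2 or any of the GPT1 replicates (adjusted p up to 0.110 and 0.0872), and GCLM was higher by 0.71 after the length and GC correction. SLC7A11 did not pass without at least 1 library. Among 7 heme and iron genes, FTH1, the ferritin heavy chain, rose from 1593 ± 105 to 2128 ± 83.4 CPM (0.42 ± 0.08, adjusted p = 0.0081), beside HMOX1, and the biliverdin reductase gene BLVRA rose by 0.32, with the others not passing. BLVRA did not pass without control replicate 1 or 2 or GPT1 replicate 1 or 3 (adjusted p up to 0.182), nor after the length and GC correction (0.16, adjusted p = 0.160). In the NADPH list TKT, transketolase, was the 1 of 6 genes that passed, lower by a log2 fold change of -0.26 (adjusted p = 0.0408), and it did not pass with DESeq2 size factors, upper quartile scaling or the length and GC correction, or without any library but control replicate 3 (adjusted p up to 0.133).

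Among other enzymes that handle quinones, carbonyls and aldehydes, 3 of 15 tested were lower, beside 14.6% over all genes. PTGR1, which reduces prostaglandin and alkenal double bonds, fell from 5.99 ± 1.14 to 1.49 ± 0.07 CPM (-2.01 ± 0.18, adjusted p = 9.4e-05), beside -2.02 for ABCC3. ALDH3A1, an aldehyde dehydrogenase, fell from 25.7 ± 3.85 to 11.9 ± 1.36 CPM (-1.12 ± 0.14, adjusted p = 0.00075). ALDH3B1 fell by 0.72 on the log2 scale, without passing when control replicate 1 or GPT1 replicate 1 was left out (adjusted p up to 0.0749). CYP4F11, a fatty acid hydroxylase, fell from 3.30 ± 0.41 to 0.814 ± 0.122 CPM (-2.02 ± 0.21, adjusted p = 0.00019) and was the 1 of 5 tested genes of the nuclear receptor and cytochrome list that passed. The 6 tested aldo-keto reductases outside the members did not pass (KCNAB2 had the smallest adjusted p, 0.158), and AKR1A1, aldehyde reductase, stood at 119 ± 14.3 and 117 ± 11.5 CPM (-0.03 ± 0.11).

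Of 18 tested conjugating enzymes 2 were higher and 1 lower, and of 9 other ABC pumps 1 was lower, beside 10.5% higher and 14.6% lower over all genes. GSTO1, a glutathione transferase, rose from 62.1 ± 5.05 to 89.6 ± 7.90 CPM (0.53 ± 0.10, adjusted p = 0.0061), GSTP1 rose by 0.48, and the barely detected GSTT2B (0.525 and 0.119 CPM) fell. GSTP1 and GSTT2B did not pass when control replicate 1 or GPT1 replicate 1 or 3 was left out (adjusted p up to 0.0815 and 0.126). Among the pumps ABCC4 fell by 0.46 on the log2 scale, failing without control replicates 1 or 3 or GPT1 replicates 1 or 3 (adjusted p up to 0.143) and after the length and GC correction (-0.23, adjusted p = 0.0685). ABCC1, the broadly expressed conjugate pump, stood at 126 ± 10.8 and 115 ± 4.21 CPM, and ABCC2, its apical counterpart, at 0.888 ± 0.353 and 0.727 ± 0.036 CPM, and neither passed. AHR, the receptor that also regulates NQO1, fell from 7.10 ± 0.78 to 4.84 ± 0.32 CPM (-0.55 ± 0.14, adjusted p = 0.0201), the 1 of 6 tested genes of its list that passed. It did not pass without GPT1 replicate 1 or 3 (adjusted p up to 0.0798), and after the length and GC correction it was -0.14 (adjusted p = 0.406). Its target CYP1A1 stood at 6.83 ± 0.37 and 7.74 ± 0.45 CPM.

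Since GPX2 and TXNRD1 are selenoproteins, a list of other selenoproteins and glutathione peroxidases was also examined. Of its 19 genes 5 were higher (TXNRD2, SELENOS, GPX1, MSRB1 and SELENOK) and 2 lower (GPX7, which carries cysteine in place of selenocysteine, and SELENOI). Over all genes 10.5% were higher and 14.6% lower. GPX1, the ubiquitous peroxidase, went from 341 ± 66.5 to 474 ± 49.1 CPM (0.47 ± 0.13, adjusted p = 0.0264), in the direction opposite to GPX2, and GPX4, which reduces lipid peroxides, stood at 392 ± 38.7 and 463 ± 32.7 CPM (0.24 ± 0.09, adjusted p = 0.0834). TXNRD2, the mitochondrial reductase, rose by 0.47 and SELENOS by 0.43 on the log2 scale, and GPX7, at 0.618 and 0.152 CPM, was barely detected. None of these 7 calls held without each library. GPX1 failed without control replicate 1 and GPT1 replicates 1 or 3, TXNRD2 and SELENOS without GPT1 replicates 1 or 3, and GPX7 without control replicate 1 or GPT1 replicate 3 (adjusted p up to 0.106, 0.0645, 0.0681 and 0.0594). In the machinery that inserts selenocysteine SECISBP2, which binds the SECIS element of the messenger RNA, fell from 80.6 ± 4.65 to 56.6 ± 3.59 CPM (-0.51 ± 0.09, adjusted p = 0.0047, and -0.25 after the length and GC correction). SEPHS2 and PSTK rose by 0.31 and 0.46 on the log2 scale, neither passing when control replicate 1 or GPT1 replicate 1 or 3 was left out, and PSTK also not without control replicate 3.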

How the data were processed

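Libraries of mRNA were made from Trizol-extracted total RNA with Illumina protocols, per the labels' protocols. Reads were aligned with HISAT2 2.0 to GRCh38, per the submitters' processing notes. The authors deposited whole-number read counts for each Ensembl gene and sample, without normalization. The counting tool, its annotation and its use of strand were not given in the sources used here. Symbols matched 60463 of 60664 identifiers, and coordinates, exon lengths and transcripts are those of GENCODE 29 on GRCh38. Promoter windows are RefSeq's on GRCh38.p14.

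The test was that of edgeR 4.0.16 under R 4.3.3, with genes kept by filterByExpr, TMM factors, quasi-likelihood F test (two-sided), Benjamini-Hochberg adjustment over 17638 genes, threshold 0.05. CPM of single genes use TMM-scaled totals, and marker sums use total counts. Replicates of a group differed beyond sampling noise (chi-square per degree of freedom 9.98 to 30.8), and each was used as a sample, although such spread does not show separate cultures. The common biological coefficient of variation was 0.119. log2 CPM for correlations used a prior count of 2. Alternatives were other scaling, filters, DESeq2 1.42.0, limma voom 3.58.1, a stricter threshold, GPT left out, a replicate block, the loss of each library in turn, and a length and GC correction (mgcv 1.9.3). Fits were tested on simulated data.

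The members and lists were chosen with earlier results of these data known. Named genes were all members, up to 4 genes of each list with the smallest adjusted p, 13 genes fixed by name, and the 5 genes most correlated with NQO1 at a mean of at least 5 CPM. SQSTM1, BACH2, MAFF, SLC7A11, MSRB1, SELENOK, SELENOI, CYP1A1, the neighbouring genes and those in the other observations were named after their values were seen.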

Additional observations from a re-analysis of the deposited data

How the results depend on the processing

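The members were chosen on the contrast between the groups, and the alternatives reuse the same libraries. How stable their calls were is thus a description and adds no support of its own. Across 18 alternatives the number of members called lower was 7 in each, and every member kept the direction of its change. The number called higher was 1 and became 0 at an adjusted p of 0.01, 2 after the length and GC correction and 2 with that correction and the replicate block, and it ranged from 0 to 2 when single libraries were left out. At an adjusted p of 0.01, 491 of all genes were higher and 681 lower, and of the pathway genes 8 were higher and 5 lower. After the length and GC correction 3502 of all genes were higher and 2608 lower, beside 1858 and 2572 without it, and 29 pathway genes were higher, and with the replicate block added 2936 of all genes were higher. Leaving out single libraries gave 613 to 1970 higher and 830 to 2937 lower genes, and 7 to 23 higher and 6 to 15 lower pathway genes. Over all genes the lowest numbers came without GPT1 replicate 3, and they were also low without GPT1 replicate 1 or control replicate 1. With 2 libraries left in a group, the spread is shared with the other group. The replicate numbers pair samples in no way the labels state, and deviations of same-numbered libraries correlated at 0.14, -0.28 and -0.08. With the replicate block 1416 of all genes were higher and 2470 lower, and of the genes named by rule GCLM, BLVRA, TKT, SEPHS2 and PSTK did not pass (adjusted p = 0.0673, 0.0953, 0.117, 0.0591 and 0.0525, edgeR). AKR1C2, ABCC2, GSTT2B and GPX7 rest on few counts, which limits their precision.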

Other observations

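A few detoxification genes with too few counts to be tested showed uneven counts over the libraries. GSTA1, a glutathione transferase of liver and gut, had 60 counts in control replicate 2 and 0 to 3 counts in each other library. NAT2, an arylamine acetyltransferase, had 4, 1 and 0 counts in the control libraries and 6 in each GPT1 library. AKR1D1, a bile acid and steroid reductase, had 1 count over the control libraries and 5, 4 and 2 counts in the GPT1 libraries, and the drug-metabolising cytochrome CYP3A4 had 0 in all controls and 3, 1 and 3 in the GPT1 libraries. The small numbers allow no comparison between the groups.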
